A study of Mus musculus with 16 samples.

Results

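The TRAV5 family of the mouse T cell receptor α chain was followed through 8 repertoire libraries. Its members were the 4 V segments TRAV5-1, TRAV5-4, TRAV5D-4 and TRAV5N-4, and a CDR3 sequence was counted as TRAV5 when the first V hit listed for it was 1 of these 4. That choice took 1810 of 78671 CDR3 nucleotide sequences (2.30%) and 13252 of 815759 reads (1.62%). TRAV5 ranked 12 of 26 V families by number of sequences, and 117 V segments were seen in all. The sequences were chosen by their V assignment, and by no other measured value.

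The libraries were made from total RNA of sorted CD8 T cells by 5′ RACE and a PCR aimed at the receptor transcript. The mice were on the C57BL/6 background and carried a Foxp3-GFP reporter in both genotypes. Themis+/+ Foxp3-GFP mice were compared with Themis-/- Foxp3-GFP mice, which lack THEMIS, a protein of the T cell receptor signalling pathway in thymocytes. For each genotype 2 libraries came from single positive (SP) CD8 thymocytes and 2 from CD8 T cells of the lymph nodes (LN), and the design text gives 2 individual mice for each genotype and cell subset. The study's methods describe lymph nodes pooled from several mice of a genotype for sorting, so an LN library may hold cells of more than 1 mouse. Depth was 57455 to 146191 reads per library. The Themis-/- mice lack the gene in all their cells, so an effect in the thymus and one in the periphery cannot be told apart by genotype. Ages of the mice were not given in the sources used here. Another 8 libraries from cells sorted for the Vα3.2 chain, which is not encoded by TRAV5, held 1 TRAV5 read in 155773 reads, under the limit of 3 counts in each (0.0119 to 0.0290% of reads).

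An α chain is assembled in the thymus by joining 1 V segment to 1 J segment, and the joint, the CDR3, meets the peptide. The TCRα locus can rearrange repeatedly on one chromosome. The J segments are numbered downwards towards the constant region, so that the early joints tend to use V segments near the J cluster with high TRAJ numbers and the later ones use more distant V segments with low TRAJ numbers. In C57BL/6 mice the V region holds internal duplications, and D and N in a segment name mark such copies. The TRAV5 members lie far from each other among these copies, which makes the family a sample of different distances to J.

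In GENCODE M21 on GRCm38 all 4 members lie on the plus strand of chromosome 14. TRAV5-1 is at chr14:52622566-52623082, 1532 kb before the first J segment (TRAJ61, annotated as a pseudogene). TRAV5D-4 follows at chr14:53001713-53002232, 1153 kb before it. TRAV5N-4 is at chr14:53312904-53313422, 842 kb before it. TRAV5-4 is closest, at chr14:53704007-53704514, 450 kb before it. Another 5 TRAV5 entries are annotated as pseudogenes, and none was the first hit of any sequence. The submitters' processing notes list the mm9 build, and these GRCm38 positions are used here only for gene order and distance.

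The 3′ ends of the annotated V transcripts show what the members bring into the CDR3. The last 30 bases are given 5′ to 3′, with the bases inside the CDR3 in capitals, starting at the codon of the conserved cysteine.
TRAV5-1: actcagccatctacttcTGCTCAGCAAGTA
TRAV5-4: actcagccatgtacttcTGTGCTGCAAGTG
TRAV5D-4: actcagccatgtacttcTGTGCTGCAAGTG
TRAV5N-4: actcagccatgtacttcTGTGCTGCAAGTG
TRAV5-1 encodes a start of CSAS and the other members encode CAAS. Of the sequences assigned to TRAV5-1, 67.8% began with CSAS and 0 with CAAS. CAAS began 64.2% of TRAV5-4 sequences, 62.0% of TRAV5D-4 sequences and 72.2% of TRAV5N-4 sequences. Over the 343 bases of the annotated transcripts, TRAV5D-4 and TRAV5N-4 were identical. TRAV5-4 differed from both at 6 positions, counted from the 5′ end of the transcript (C66T, G134C, A141G, G142A, T239C and A245G, with the TRAV5-4 base first). TRAV5-1 was only 79.6 to 80.2% identical to the others.

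The deposited hits carry this likeness. All 366 TRAV5-1 sequences had TRAV5-1 as their single best hit, and so did 554 of 565 TRAV5-4 sequences for TRAV5-4. Each of the 631 sequences with TRAV5D-4 as the first hit had TRAV5N-4 as an equal hit, while 248 sequences had TRAV5N-4 alone. The values under TRAV5D-4 are therefore those of sequences that fit both copies, and the counts of these 2 copies are uncertain. The V reference behind the hits was not given in the sources used here, so the basis on which 248 sequences matched TRAV5N-4 better than an identical annotated copy is unknown, and every value under TRAV5N-4 carries that limit. Of the 73 TRAV5 nucleotide sequences found in more than 1 library, 44 had more than 1 first hit among their libraries.

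The use of TRAV5 as a whole differed between groups by less than the test could separate. TRAV5 took 1.52 and 1.16% of reads in Themis+/+ LN, 1.53 and 1.75% in Themis-/- LN, 1.78 and 2.57% in Themis+/+ thymus, and 1.44 and 1.19% in Themis-/- thymus. Both Themis+/+ thymus libraries were above the other 6. Among the 23 V families tested with edgeR's quasi-likelihood test, the log2 fold change of TRAV5 in Themis-/- against Themis+/+ was 0.25 ± 0.45 (SE, adjusted p = 0.828) in LN and -0.69 ± 0.45 (adjusted p = 0.492) in the thymus. That test called 4.35% of families in LN and 0% in the thymus, where 1 family had an unadjusted p under 0.05 and DESeq2 called 0. LN against thymus gave -0.64 ± 0.45 (adjusted p = 0.894) in Themis+/+ mice and 0.30 ± 0.45 (adjusted p = 0.637) in Themis-/- mice. The 2 libraries of each group did not overlap in any of these 4 comparisons, though the gap in LN between genotypes was only from 1.52 to 1.53%. TRAV5 was higher in Themis-/- LN, where 21.7% of families were higher without overlap, and lower in Themis-/- thymus, where 30.4% were lower. In Themis+/+ mice LN was lower than the thymus (17.4% of families lower without overlap), and in Themis-/- mice it was higher (17.4% higher). The genotype effect in LN minus that in the thymus was 0.94 ± 0.64 (adjusted p = 0.827). These comparisons share libraries. Reads without molecular identifiers do not tell fewer cells from less receptor RNA per cell.

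Counted as sequences, TRAV5D-4 was the most used member in the mean over the 8 libraries (0.807% ± 0.211 of sequences, SD), with TRAV5-4 next (0.711% ± 0.242), then TRAV5-1 (0.460% ± 0.239) and TRAV5N-4 (0.330% ± 0.135). Neighbours in this order lay within 1 SD of each other except TRAV5-4 and TRAV5-1. By reads the order was different. TRAV5D-4 held 0.581% ± 0.285 of reads, TRAV5-1 0.396% ± 0.191, TRAV5N-4 0.329% ± 0.172 and TRAV5-4 0.313% ± 0.168, and the last 3 lay within 1 SD of each other.

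TRAV5-4, the member nearest to J, was lower in both Themis-/- thymus libraries than in both Themis+/+ ones. It took 0.484 and 0.614% of reads in Themis+/+ thymus and 0.212 and 0.134% in Themis-/- thymus. In LN it took 0.402 and 0.258% in Themis+/+ and 0.196 and 0.205% in Themis-/- mice, again without overlap. The share of segments that were lower without overlap in Themis-/- libraries was 23.7% in the thymus and 25.4% in LN, so the separation of TRAV5-4 was of a common kind. The fold change in the thymus was -1.56 ± 0.68 on the log2 scale (unadjusted p = 0.0266, adjusted p = 0.553 over 114 segments), where edgeR and DESeq2 each called 0 segments (0% called) and 8 had an unadjusted p under 0.05. When distinct sequences were counted in place of reads, TRAV5-4 was lower in Themis-/- thymus by a log2 fold change of -1.31 ± 0.33 (edgeR, adjusted p = 0.0110), 1 of 3 segments called among 108 (2.78% called). Without Themis+/+ thymus replicate 2 the adjusted p was 0.0921, without Themis-/- thymus replicate 1 it was 0.239, without Themis-/- thymus replicate 2 it was 0.242, and without sequences of 1 read it was 0.0658, while the log2 fold change stayed between -1.41 and -1.18. On that scale TRAV5-4 was 0.864 and 0.952% of sequences in Themis+/+ thymus and 0.408 and 0.371% in Themis-/- thymus. The sequence-based fold change in LN was -0.49 ± 0.34 (adjusted p = 0.453), where 8.33% of segments were called.

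TRAV5D-4, the first hit of the tied sequences, took 0.649 and 1.18% of reads in Themis+/+ thymus and 0.299 and 0.329% in Themis-/- thymus. The 2 genotypes did not overlap, and 23.7% of all segments were lower without overlap in that comparison. The log2 fold change was -1.46 ± 0.56 (edgeR, unadjusted p = 0.0126, adjusted p = 0.411), where 0% of segments were called. In LN the shares were 0.707 and 0.381% in Themis+/+ and 0.492 and 0.609% in Themis-/- mice, where the Themis-/- values lay between the Themis+/+ ones. The fold change there was 0.01 ± 0.55 (adjusted p = 0.987).

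TRAV5N-4 showed its widest gap in LN. It took 0.245 and 0.124% of reads in Themis+/+ LN and 0.453 and 0.627% in Themis-/- LN, without overlap, and 19.3% of segments were higher without overlap in that comparison. The log2 fold change was 1.54 ± 0.69 (edgeR, unadjusted p = 0.0307, adjusted p = 0.184), in a comparison where 1.75% of segments were called, none of them TRAV5. In the thymus TRAV5N-4 took 0.328 and 0.344% in Themis+/+ and 0.109 and 0.400% in Themis-/- mice, and the groups overlapped. Its LN values were lower than its thymus values in all Themis+/+ libraries (16.7% of segments lower without overlap) and higher in all Themis-/- libraries (15.8% higher). TRAV5-4 was likewise lower in LN in Themis+/+ mice and TRAV5D-4 higher in LN in Themis-/- mice, both without overlap. The difference of the 2 genotype effects was 1.9 ± 0.96 for TRAV5N-4 (edgeR, unadjusted p = 0.0541, adjusted p = 0.765). For TRAV5D-4 it was 1.47 ± 0.79 (edgeR, unadjusted p = 0.0678, adjusted p = 0.765).

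TRAV5-1, the most distant member, took 0.323 and 0.432% of reads in Themis+/+ thymus, 0.823 and 0.323% in Themis-/- thymus, 0.167 and 0.400% in Themis+/+ LN and 0.390 and 0.309% in Themis-/- LN. The genotypes overlapped in both tissues. One library stood apart: in Themis-/- thymus replicate 1 TRAV5-1 made up 57.0% of TRAV5 reads, spread over 120 sequences of which the largest held 59 of 1203 reads. In the other 7 libraries TRAV5-1 made up 11 to 34.4% of TRAV5 reads. The fold change in the thymus was 0.73 ± 0.64 (edgeR, adjusted p = 0.838).

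With TRAV5-4, TRAV5D-4 and TRAV5N-4 summed, the uncertainty of the copies falls away. The sum changed by a log2 fold of -1.29 ± 0.45 in Themis-/- against Themis+/+ thymus (edgeR, unadjusted p = 0.00802, adjusted p = 0.489) and by 0.32 ± 0.44 in LN (adjusted p = 0.756). Between LN and thymus no TRAV5 segment was called in either genotype, with 0% of all segments called in Themis+/+ (none with an unadjusted p under 0.05, and 0 by DESeq2) and 2.63% in Themis-/- mice. The difference between the genotype effects was called for 0.877% of segments and for no TRAV5 member.

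**Figure D1:**
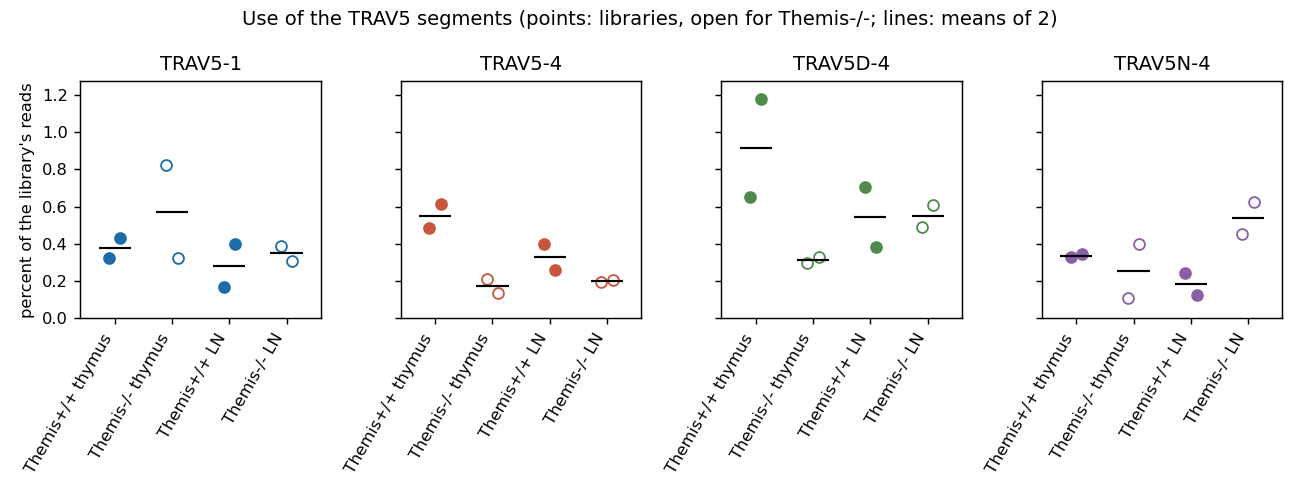
Percent of each library's reads assigned to each TRAV5 segment, by group. Points are libraries (open for Themis-/-) and lines are means of 2; both Themis-/- thymus points of TRAV5-4 and TRAV5D-4 lie under both Themis+/+ thymus points, and 1 Themis-/- thymus library stands at 0.823% for TRAV5-1.

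The members were joined to different J segments. The mean TRAJ number, taken over sequences and then over the 8 libraries, was 41 ± 3.1 (SD) for TRAV5-4, 35.2 ± 4.3 for TRAV5D-4, 24.9 ± 3.2 for TRAV5N-4 and 24.3 ± 4.2 for TRAV5-1. Those of TRAV5-4 ran from 35.2 to 45.8 and did not overlap with those of TRAV5-1 (18.5 to 29.8) or TRAV5N-4 (20.9 to 28.5). Those of TRAV5N-4 and TRAV5-1 lay within each other's spread. These are descriptions, since the V hit chose the sequences and no replicate outside this choice was at hand.

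**Figure D2:**
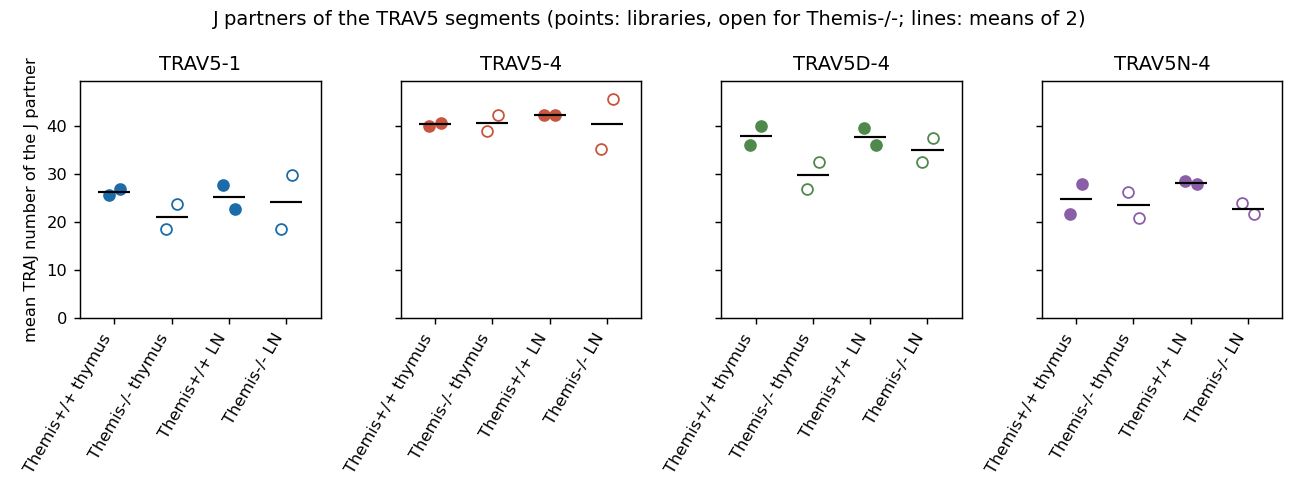
Mean TRAJ number of the J partner of each TRAV5 segment, by group, with each sequence counted once. Points are libraries (open for Themis-/-) and lines are means of 2; every TRAV5-4 library lies at 35.2 or above and every TRAV5-1 and TRAV5N-4 library under 30.

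Joints to J segments numbered above 40 made up 55.9% of TRAV5-4 sequences (316 of 565) and 41.4% of TRAV5D-4 sequences (261 of 631), against 7.26% of TRAV5N-4 (18 of 248) and 2.73% of TRAV5-1 sequences (10 of 366). At the other end, J segments numbered 20 or less made up 37.5% of TRAV5N-4 and 34.2% of TRAV5-1 sequences, 14.7% of TRAV5D-4 and 4.60% of TRAV5-4 sequences. TRAV5-1 had no joint to a J segment above number 50. TRAV5D-4 was joined to 41 different J segments, TRAV5-4 to 38, TRAV5N-4 to 37 and TRAV5-1 to 32 of the 43 seen.

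**Figure D3:**
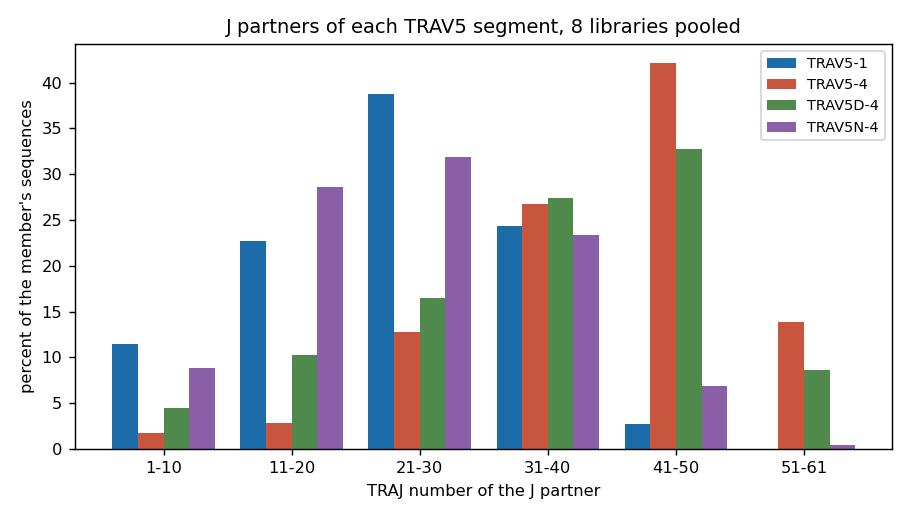
Percent of each TRAV5 segment's sequences by the TRAJ number of the J partner, with the 8 libraries pooled and no error bars. TRAV5-4 peaks at TRAJ numbers 41 to 50 (42.1%) and TRAV5-1 at 21 to 30 (38.8%).

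Against the map, 3 members were close to the V segments next to them. TRAV5-4 (41) lay beside TRAV4-4-DV10 at 41.9 ± 1.1 and TRAV6-7-DV9 at 42.4 ± 0.8. TRAV5N-4 (24.9) lay beside TRAV4N-4 at 23.1 ± 2.6 and TRAV6N-7 at 23.6 ± 2.6. TRAV5-1 (24.3) lay beside TRAV3-1 at 26.4 ± 3.4 and TRAV6-1 at 23.8 ± 3.0. TRAV5D-4 stood above its neighbours, at 35.2 ± 4.3 against 29.5 ± 4.0 for TRAV4D-4 and 28.2 ± 2.7 for TRAV6D-7. Every sequence under TRAV5D-4 was tied with TRAV5N-4, so this mean is that of sequences that fit both copies. Why it stood above the neighbours was not tested. Over the 100 V segments with at least 100 sequences, the distance to J and the mean TRAJ number had a Pearson r of -0.654 and a Spearman rho of -0.568, a description over segments that share libraries.

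**Figure D4:**
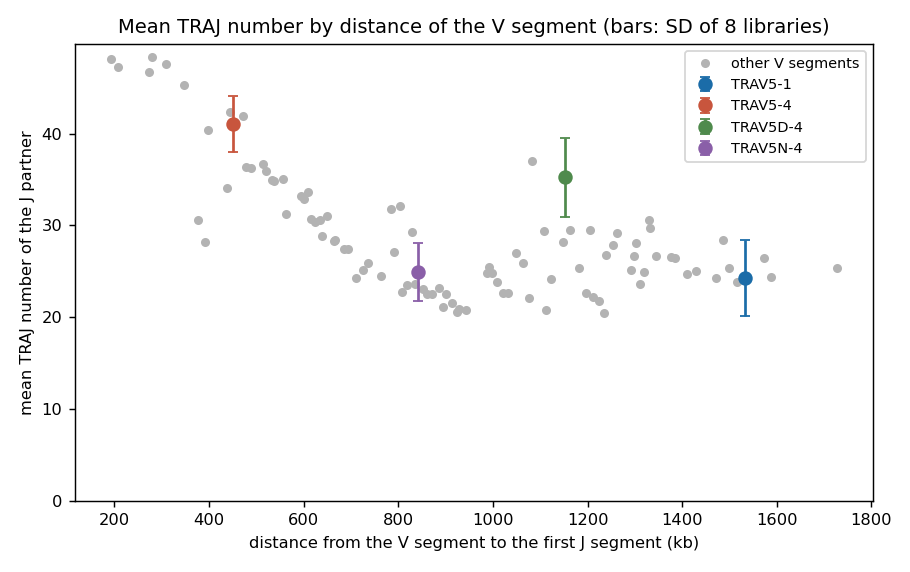
Mean TRAJ number of the J partner against the distance in kb from the V segment to the first J segment, for 100 V segments. Grey points are other V segments and coloured points the TRAV5 segments with the SD of 8 libraries; TRAV5D-4 (1153 kb, 35.2) lies above most segments at its distance.

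The J partners with the highest mean share of TRAV5 sequences were TRAJ40 (6.85% ± 3.6, SD of 8 libraries), TRAJ49 (6.71% ± 4.22), TRAJ23 (5.48% ± 3.36), TRAJ22 (4.84% ± 2.46) and TRAJ31 (4.23% ± 2.59), which together took 28.1%. Among other V segments the same J segments took 4% ± 0.76, 4.15% ± 1.4, 5.13% ± 0.57, 5.50% ± 0.48 and 5.05% ± 0.49. TRAJ40 was above the other V segments in 6 of 8 libraries, and so was TRAJ49. All but 1 of the 115 TRAV5 joints to TRAJ49 came from TRAV5-4 (61) and TRAV5D-4 (53). The rarest partners were TRAJ2 (2 sequences), TRAJ28 (3) and TRAJ5 (10), and every J segment seen in the libraries occurred with TRAV5. None of the 33 TRAV5 and J pairs tested was called between genotypes or tissues, as was true of all 564 V family and J pairs (0% called in each of the 4 comparisons, with 13 to 47 pairs at an unadjusted p under 0.05). Of the TRAV5 pairs, 2 had an unadjusted p under 0.05 in each genotype comparison and in Themis+/+ LN against thymus, and 4 did in Themis-/- LN against thymus. The median log2 fold change of the TRAV5 pairs in Themis-/- against Themis+/+ was 0.30 in LN and -0.38 in the thymus, beside -0.05 and 0.02 over all pairs.

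Set against the other V segments of the same library, the TRAV5 family had a higher mean TRAJ number, though not every member did. The library means were 32.9 ± 4.5 (SD, n = 8) for TRAV5 and 28.6 ± 2.7 for other V segments, a difference of 4.30 ± 2.46 (higher in 7 of 8 libraries, exact sign-flip permutation test, two-sided, p = 0.0156, adjusted p = 0.0234 over 6 features). The exception was Themis-/- thymus replicate 1, at 25.4 against 25.7, the library with the high TRAV5-1 share. With reads as weights the difference was 3.19 and the adjusted p no longer passed the threshold of 0.05. Among the members, the means of TRAV5-4 (41) and TRAV5D-4 (35.2) lay above the 28.6 of other V segments. Those of TRAV5N-4 (24.9) and TRAV5-1 (24.3) lay below it.

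TRAV5 sequences had fewer reads each. The log2 of the mean reads per sequence was 2.90 ± 0.40 for TRAV5 and 3.46 ± 0.35 for other V segments, lower in 8 of 8 libraries by 0.55 ± 0.24 (exact sign-flip permutation test, p = 0.0078, the smallest the test can give, adjusted p = 0.0234). The gap ranged from 0.05 in Themis+/+ thymus replicate 2 to 0.82 in Themis+/+ LN replicate 2. The members, given here in plain reads rather than log2, were uneven. TRAV5-4 had 4.66 ± 1.27 reads per sequence, TRAV5D-4 7.62 ± 2.12, TRAV5-1 10.1 ± 3.4 and TRAV5N-4 10.8 ± 4.4. No single member was tested against other V segments. Sequences seen in 1 read made up 29.4% ± 4.0 of TRAV5-4 and 7.71% ± 4.74 of TRAV5N-4 sequences. For the family as a whole that share was 17.7% ± 3.9 against 17.9% ± 2.1 for other V segments (adjusted p = 0.820, exact sign-flip permutation test).

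The CDR3 of TRAV5 was 40.2 ± 0.3 bases long against 40.6 ± 0.2 for other V segments, shorter in 7 of 8 libraries by 0.39 ± 0.26 bases (exact sign-flip permutation test, p = 0.0156, adjusted p = 0.0234). Against only those V segments that have copies, the difference was 0.06 bases in the other direction and the call was lost, and with reads as weights it was -0.47 bases and lost the adjusted call as well. CDR3s of 13 residues made up 31.3% and those of 14 residues 33.9% of TRAV5 sequences. The summed Kyte-Doolittle hydropathicity, a scale on which higher values are more hydrophobic, was 0.92 ± 0.86 for TRAV5 and 2.34 ± 0.31 for other V segments, lower in 8 of 8 libraries by 1.43 ± 0.74 (exact sign-flip permutation test, p = 0.0078, adjusted p = 0.0234). TRAV5-1 was lowest at -1.11 ± 2.00, while the other 3 members had means of 1.36 to 1.85. The V end is part of the CDR3, so length and hydropathicity are in part fixed by the choice of V. Net charge was 0.50 ± 0.17 against 0.42 ± 0.06 (adjusted p = 0.178, same exact permutation test), and without Themis+/+ LN replicate 1, the 1 library in which TRAV5 was lower, the adjusted p was 0.0312. Without that library all differences have the same sign, so the sign-flip test gives its smallest p whatever their size. The lower p therefore follows from which library was left out, and no charge difference is read from it. At least 1 base lay between the V and J ends in 64.3% ± 6.1 of TRAV5 sequences and 66.2% ± 1.8 of others.

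**Figure D5:**
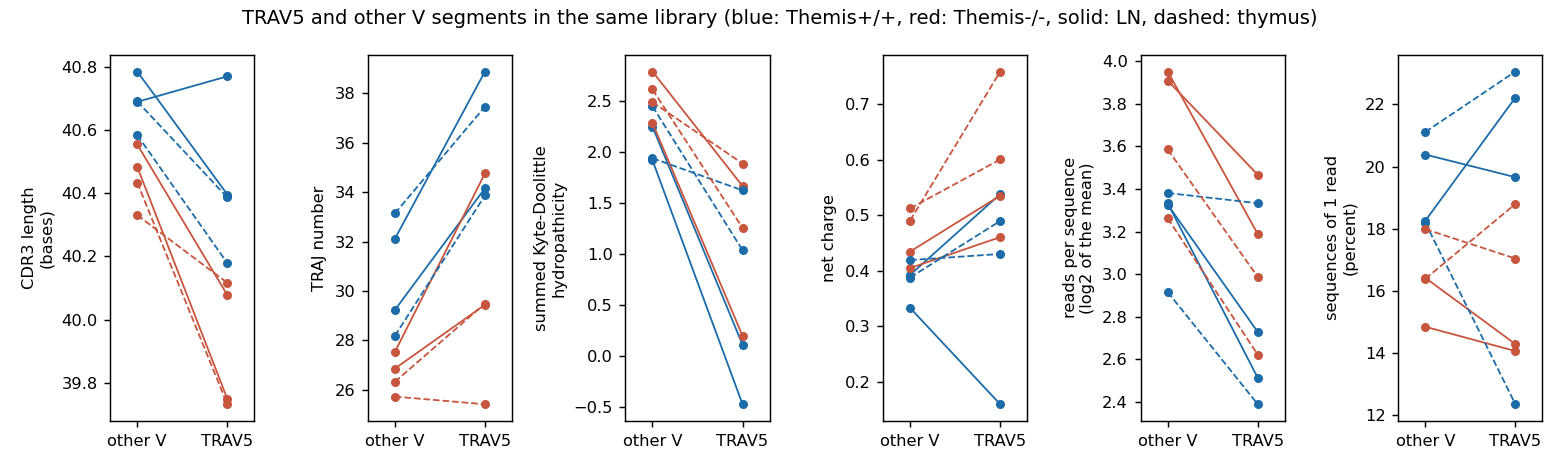
Means of 6 features of TRAV5 sequences and of all other V segments in the same library, 1 line for each of 8 libraries; the axes do not start at 0. TRAV5 lies lower in all 8 libraries for hydropathicity and reads per sequence, and higher in 7 of 8 for the TRAJ number.

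Across genotype and tissue the features of TRAV5 sequences were compared by exact permutation within the other factor, where 36 arrangements allow no p under 0.0556 and 2 libraries against 2 none under 0.33, so no comparison could pass 0.05. The CDR3 of TRAV5 averaged 40.4 and 40.8 bases in Themis+/+ LN, 39.8 and 40.1 in Themis-/- LN, 40.2 and 40.4 in Themis+/+ thymus, and 39.7 and 40.1 in Themis-/- thymus. Both Themis-/- libraries were shorter than both Themis+/+ libraries in each tissue, with a mean difference of -0.51 bases (exact permutation p = 0.0556, adjusted p = 0.278 over 10 comparisons). The other V segments of the same libraries were separated in the same way. They averaged 40.78 and 40.69 bases in Themis+/+ LN against 40.48 and 40.55 in Themis-/- LN, and 40.58 and 40.69 in Themis+/+ thymus against 40.43 and 40.33 in Themis-/- thymus.

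The TRAJ number of TRAV5 joints was lower in Themis-/- mice on average. It was 38.9 and 34.2 in Themis+/+ LN, 29.4 and 34.8 in Themis-/- LN, 33.9 and 37.5 in Themis+/+ thymus, and 25.4 and 29.5 in Themis-/- thymus. The genotypes overlapped in LN and not in the thymus, and the mean difference was -6.32 (exact permutation p = 0.111, adjusted p = 0.278). The other V segments moved the same way, by -4.06 (exact permutation p = 0.0556), and for them the genotypes did not overlap in either tissue. The difference between TRAV5 and other V segments changed by -2.26 between genotypes (exact permutation p = 0.222), so a larger shift of TRAV5 was not shown. TRAV5D-4 joints differed between Themis-/- and Themis+/+ mice by -8.26 in the thymus and -2.73 in LN, TRAV5-1 joints by -5.19 and -1.13, and TRAV5N-4 joints by -1.33 and -5.48. For TRAV5-4 the differences were 0.34 in the thymus (40.5 ± 0.4 in Themis+/+ and 40.8 ± 2.4 in Themis-/-) and -1.84 in LN (42.3 ± 0.1 and 40.5 ± 7.5), where the Themis-/- LN libraries were at 35.2 and 45.8, the lowest and the highest of all 8. Whether the members differed from each other in this was not tested. The mean of the 4 member means, which gives each member equal weight, differed by -3.2 in Themis-/- against Themis+/+ mice (exact permutation p = 0.167). For this mean too the genotypes overlapped in LN and not in the thymus. It rests on the uncertain split of TRAV5D-4 and TRAV5N-4, and the part of member use in the family difference was not tested.

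The share of TRAV5 reads in the 10 largest TRAV5 sequences was 19.0 and 32.6% in Themis+/+ LN, 37.7 and 31.2% in Themis-/- LN, 14.2 and 24.0% in Themis+/+ thymus, and 23.7 and 18.2% in Themis-/- thymus. LN was above the thymus by 10.1 percentage points (exact permutation p = 0.111, adjusted p = 0.278), and the genotypes overlapped in both tissues. At an equal 668 TRAV5 reads, the depth of the smallest library, 210 and 117 distinct TRAV5 sequences were found in Themis+/+ LN, 104 and 113 in Themis-/- LN, 281 and 185 in Themis+/+ thymus, and 192 and 189 in Themis-/- thymus. The Themis-/- LN libraries had the fewest. Neither this count nor the share in the 10 largest was computed for other V segments. The log2 of the mean reads per sequence of other V segments was highest in Themis-/- LN (3.95 and 3.91), beside 2.92 to 3.59 in the other libraries. The difference in distinct TRAV5 sequences was -75.6 for LN against thymus (exact permutation p = 0.111, adjusted p = 0.278) and -48.8 for Themis-/- against Themis+/+ (p = 0.222, adjusted p = 0.370). The latter was -24.8 without Themis+/+ thymus replicate 1 and -25.5 without Themis+/+ LN replicate 1. For the TRAV5-1 share of TRAV5 reads Themis-/- against Themis+/+ differed by -1.15 points in LN and 24.7 points in the thymus, 11.8 points in the mean (exact permutation, adjusted p = 0.476). LN against thymus differed by 5.27 points in Themis+/+ and -20.6 points in Themis-/- mice, -7.65 points in the mean (exact permutation, adjusted p = 0.556). Without Themis-/- thymus replicate 1 these means were 4.32 and -0.20 points, without Themis+/+ LN replicate 1 they were 5.91 and -1.80, without Themis-/- thymus replicate 2 they were 19.2 and -15.1, and without Themis+/+ LN replicate 2 they were 17.6 and -13.5.

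The largest TRAV5 clone of each library held 31 to 121 reads, 2.26 to 7.05% of TRAV5 reads and at most 0.123% of the library. Their nucleotide sequences are printed 5′ to 3′, with bases that neither the V nor the J alignment covered in capitals, to show how different the leading clones were.
Themis+/+ LN 1, TRAV5-1 with TRAJ30: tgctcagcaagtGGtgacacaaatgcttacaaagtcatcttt
Themis+/+ LN 2, TRAV5-1 with TRAJ23: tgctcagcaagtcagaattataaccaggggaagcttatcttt
Themis-/- LN 1, TRAV5N-4 with TRAJ13: tgtgctgcaagtgggacttaccagaggttt
Themis-/- LN 2, TRAV5-1 with TRAJ40: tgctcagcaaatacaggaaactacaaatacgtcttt
Themis+/+ thymus 1, TRAV5-1 with TRAJ30: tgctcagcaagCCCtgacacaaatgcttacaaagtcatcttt
Themis+/+ thymus 2, TRAV5-4 with TRAJ39: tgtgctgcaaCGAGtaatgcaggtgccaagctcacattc
Themis-/- thymus 1, TRAV5-4 first of a tie with TRAV5D-4 and TRAV5N-4, with TRAJ48: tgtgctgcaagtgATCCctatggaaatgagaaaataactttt
Themis-/- thymus 2, TRAV5N-4 with TRAJ9: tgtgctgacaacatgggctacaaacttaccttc
TRAV5-1 gave the largest clone in 4 of 8 libraries, and held 20.2% of TRAV5 sequences and 25.3% of TRAV5 reads. The leading clones of Themis+/+ LN 1 and Themis+/+ thymus 1 both joined TRAV5-1 to TRAJ30 and encoded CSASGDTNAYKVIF and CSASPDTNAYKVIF. Of the 8 clones only the shortest, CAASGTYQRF of 10 residues, was found in a second library.

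TRAV5 clonotypes were compared between libraries. Of 1445 distinct CDR3 amino acid sequences, 115 (7.96%) were found in 2 or more libraries, 21 in 3 or more, 4 in 4 or more and 1 in 5. Pairs of libraries shared 0 to 23 of them, with a median of 2.63% of TRAV5 clonotypes, beside a median of 13.6% for clonotypes of all other V segments. By nucleotide sequence the medians were 1.19 and 5.14%. The set of other V segments is much larger, and the 2 shares were not compared at equal size. Without Themis+/+ thymus replicate 1, the library with the most TRAV5 sequences, 66 were found in 2 or more, and without Themis+/+ LN replicate 1 there were 76. The most widely shared, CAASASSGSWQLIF, joined TRAV5D-4 or TRAV5N-4 to TRAJ22 and was written in 4 nucleotide versions, of which the second was in 3 libraries.
version in Themis+/+ LN 2: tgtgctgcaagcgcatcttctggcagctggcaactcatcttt
version in 3 libraries: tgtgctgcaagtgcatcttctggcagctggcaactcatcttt
version in Themis+/+ thymus 1: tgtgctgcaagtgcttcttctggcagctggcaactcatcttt
second version in Themis+/+ thymus 1: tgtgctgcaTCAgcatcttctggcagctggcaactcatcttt
It held 3.53 and 1.91% of TRAV5 reads in the Themis-/- LN libraries, 0.449% in 1 Themis+/+ LN library, 0.359 and 0.909% in the Themis+/+ thymus libraries and no read in the other 3. Both Themis-/- LN values were thus above the rest, but they rest on 36 and 27 reads. The Themis+/+ LN value rests on 3 reads and the Themis+/+ thymus values on 8 and 23. Neither Themis-/- thymus library had a read of it, which with the limit of 3 counts does not show that it was absent. How many other clonotypes were separated in this way was not counted, so no difference between groups is read from this one.

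The others in 4 libraries were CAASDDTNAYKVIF with TRAJ30, a CDR3 of 15 residues with TRAJ53 and a CDR3 of 14 residues with TRAJ52. That with TRAJ52 had a different nucleotide sequence in each of its 4 libraries, always under TRAV5-4, and held 0.0707 to 0.749% of TRAV5 reads in them. The one with TRAJ30 had 1 nucleotide sequence in all 4 libraries, with 3 different first hits.
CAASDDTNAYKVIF: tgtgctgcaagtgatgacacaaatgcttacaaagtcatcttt
The CDR3 with TRAJ53 began with the same bases. In Themis-/- thymus 2 it had another nucleotide version, which was also in Themis+/+ LN 1. In its other 3 libraries, all Themis+/+, it had this sequence.
TRAJ53 joint: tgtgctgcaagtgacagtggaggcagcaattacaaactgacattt
TRAJ52 joint in Themis+/+ LN 2: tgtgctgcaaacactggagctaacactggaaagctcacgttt
None of these has a base in capitals. Among the 73 nucleotide sequences found in more than 1 library, 61.6% had no base between the V and J ends, against 33.9% of the 1654 found in 1 library.

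The families whose share of reads followed that of TRAV5 most closely over the 8 libraries, by Pearson's r of log2 shares, were TRAV21 (r = 0.617), TRDV1 (r = 0.428) and TRAV17 (r = 0.413). These are descriptions over libraries whose shares sum to a whole.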

How the data were processed

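Total RNA of sorted SP CD8 thymocytes and LN CD8 T cells had been reverse transcribed with template switching and amplified in 2 rounds of PCR by the authors, without molecular identifiers in the deposited tables. Per the authors' methods, receptor sequences were extracted by MiXCR (no version stated there). The submitters' processing notes list CASAVA 1.4 and mm9. The deposited count is the number of reads of a CDR3 nucleotide sequence, and the deposited fraction is that count over the library's total, which was not used for tests.

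Reads were summed by the first V and J hit. edgeR 4.0.16 (quasi-likelihood, TMM, 1 model of 4 groups of 2 libraries, V segments or families kept at 10 or more reads in 2 or more libraries, V family and J pairs with at least 5 distinct sequences in at least 2) was run over all features in R 4.3.3, with Benjamini-Hochberg adjustment and a threshold of 0.05. DESeq2 1.42.0 was an alternative. CDR3 features were averaged over distinct sequences within a library. TRAV5 was set against other V segments by exact sign-flip tests over 8 libraries (256 patterns), and groups by exact permutation within strata (36 arrangements), all two-sided. Equal depth was reached by rarefaction, with mean TRAJ numbers counting each sequence once. Scripts were tested on simulated data. Gene positions and V ends came from GENCODE M21. Depth was 57455 to 146191 reads per library. Counts of 3 reads set the limit where none was found. Limits of counting cover counting error only, since PCR reads are not independent molecules. The replicates are individual mice per the design text, while the methods describe pooled lymph nodes, and nothing says which libraries share a mouse. A figure legend of the study gives 2 experiments, pooled within each genotype. Whether the 2 libraries of a group came from different experiments is not stated. The p-values measure the spread between these libraries.

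Named were all 4 members, the 5 J partners with the highest and the 3 with the lowest mean share, any TRAV5 pair called, the 5 TRAV5 CDR3s in the most libraries, the largest TRAV5 clone of each library and the 3 families with the most similar share of reads. Of these families, only the correlation is given. One of the 5 CDR3s is not reported here. The members and lists were chosen with earlier results of these data known. Alternatives covered normalization, filters, counting unit, weighting, thinning, merged copies, a replicate block and leaving out each library. The 8 libraries of cells sorted for Vα3.2 were used only to count TRAV5 reads. Further fits on distinct sequences were chosen after seeing the data.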

Additional observations from a re-analysis of the deposited data

How the results depend on the processing

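The use of the TRAV5 family kept its direction and stayed above the threshold in all 5 comparisons under every alternative normalization, filter, tool and counting unit. Leaving out 1 library at a time, its log2 fold change in Themis-/- against Themis+/+ ran from 0.22 to 0.44 in LN and from -0.88 to -0.31 in the thymus, in LN against thymus from -0.88 to -0.26 in Themis+/+ and from 0.15 to 0.48 in Themis-/- mice, and for the difference of genotype effects from 0.56 to 1.16. With distinct sequences in place of reads, 1 TRAV5 member (TRAV5-4, -1.31) was called in Themis-/- against Themis+/+ thymus where 0 were called by reads, and TRAV5-4 in LN against thymus of Themis+/+ mice turned to 0.038 from -0.60. TRAV5D-4 in Themis-/- against Themis+/+ LN, at 0.01, turned to -0.021 without sequences of 1 read and to -0.0077 with the replicate block. Replicate numbers were not treated as pairs, because same-numbered libraries did not deviate together. Between LN and thymus of a genotype, which could share a mouse, r was 0.017 in Themis+/+ and -0.031 in Themis-/- mice. Between genotypes it was -0.204 for the LN groups and -0.103 for the thymus groups. On reads, the replicate block called 0 TRAV5 members, as without it, and on distinct sequences it called TRAV5-4 in the thymus (adjusted p = 0.0195), as without it. With the numbers crossed on reads, which was chosen after seeing the data, 0 members were called in LN and 0 in the thymus.

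Leaving out 1 library, single members changed sign where their fold was small or 1 library stood apart: TRAV5-1 ran from -0.052 to 1.11 (Themis-/- against Themis+/+ LN), -0.23 to 1.3 (thymus), -1.10 to 0.10 (LN against thymus, Themis+/+), -1.28 to 0.28 (Themis-/-) and -1.04 to 0.67 (difference of genotype effects), TRAV5-4 from -0.13 to 0.74 (LN against thymus, Themis-/-), TRAV5D-4 from -0.31 to 0.66 (genotypes in LN) and TRAV5N-4 from -1.46 to 0.25 (genotypes in thymus).

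Against other V segments, weighting by reads took away 2 calls, CDR3 length at -0.47 bases and TRAJ number at 3.19. Against only the segments with copies, the length difference turned to 0.064 bases and the share of sequences of 1 read to 0.11 points, and thinning turned the latter to 1.39 points. The LN minus thymus difference in CDR3 length, 0.14 bases, turned to -0.33 with reads as weights. Leaving out 1 library, the charge difference ran from 0.047 to 0.11, and the share of sequences of 1 read from -0.87 to 0.53. Shared clonotypes numbered 73 by nucleotide sequence, where fewer sequences can match by construction, 96 after thinning, 93 without sequences of 1 read, and 66 to 108 with 1 library left out. The cause of these changes was not tested. Counting each sequence once was not run for the share in the 10 largest, and weighting by reads not for distinct sequences at equal reads, since each is set by its own definition.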
